A study of Mus musculus with 8 samples.

Results

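The glycolysis genes followed here are Slc2a1, Hk2, Pfkl, Aldoa, Tpi1, Gapdh, Pgk1, Eno1, Pkm and Ldha, 10 genes that cover the pathway from glucose uptake to lactate. They were taken by symbol from the 32285 genes of the count tables, and all 10 were found. No measured value entered the rule, but the genes were chosen with earlier results of these data known. The cells were splenocytes of 2-month-old mice, and each gene was followed through naive, activated and germinal center B (GCB) cells and through T cell subsets. Conditional knockout (cKO) mice were Eif3e fl/fl Cγ1Cre Rosa26-YFP LSL, and control mice were Cγ1Cre Rosa26-YFP LSL, so that both genotypes carried the Cre and the reporter and differed by the floxed Eif3e allele. Eif3e encodes a subunit of the translation initiation factor eIF3. Cγ1Cre is switched on with transcription of the immunoglobulin γ1 constant region, which happens in activated B cells, and YFP then marks cells in which Cre has acted. Either all live splenocytes (total) or YFP+ cells were sorted, which gave 4 groups, cKO YFP+, control YFP+, cKO total and control total. Each group had 2 libraries, 1 in each of 2 batches, and each library pooled cells of 2 to 3 mice, so that the libraries rather than single mice are the replicates.

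Glycolysis converts glucose to pyruvate in the cytosol and yields ATP and building blocks without oxygen. Resting lymphocytes run it at a low rate, and activated lymphocytes and germinal center cells raise it, in large part through the transcription factors Myc and Hif1a, which bind E-box and hypoxia response elements at many glycolytic genes. Slc2a1 encodes the glucose transporter GLUT1. Hk2 traps glucose by phosphorylation, Pfkl is the liver-type subunit of phosphofructokinase at the main committed step, and Aldoa splits the resulting hexose bisphosphate. Tpi1 interconverts the triose phosphates, Gapdh oxidizes glyceraldehyde 3-phosphate, Pgk1 and Pkm each make ATP, Eno1 forms phosphoenolpyruvate, and Ldha reduces pyruvate to lactate.

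On GRCm38, Slc2a1 and Eno1 lie on chromosome 4, Hk2, Tpi1 and Gapdh on 6, Ldha and Aldoa on 7, Pkm on 9, Pfkl on 10 and Pgk1 on X. The 150 bases before the RefSeq start of Hk2, Ldha, Slc2a1 and Tpi1 (GRCm38.p6) are printed because these genes carry the contrasts described below. A RefSeq start can lie inside the whole span of a gene. The span of Ldha begins at 46841475, that of Slc2a1 at 119108711, and that of Tpi1, on the minus strand, at 124814296. The printed stretch thus lies wholly within the span for Ldha, mostly for Tpi1 and partly for Slc2a1. Capitals mark the core hypoxia response element ACGTG on either strand and the E-box CACGTG, each of which contains an ACGTG on both strands.
Hk2, chr6:82774455-82774604, minus strand: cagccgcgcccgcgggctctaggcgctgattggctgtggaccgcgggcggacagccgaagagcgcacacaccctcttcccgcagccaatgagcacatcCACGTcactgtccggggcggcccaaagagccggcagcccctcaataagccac
Ldha, chr7:46845654-46845803, plus strand: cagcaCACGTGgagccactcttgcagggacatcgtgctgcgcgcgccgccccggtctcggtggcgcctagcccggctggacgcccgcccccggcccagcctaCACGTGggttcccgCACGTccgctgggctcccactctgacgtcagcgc
Slc2a1, chr4:119108595-119108744, plus strand: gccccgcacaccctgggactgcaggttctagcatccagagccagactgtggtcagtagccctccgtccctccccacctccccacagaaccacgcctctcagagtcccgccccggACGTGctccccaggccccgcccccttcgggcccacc
Tpi1, chr6:124814159-124814308, minus strand: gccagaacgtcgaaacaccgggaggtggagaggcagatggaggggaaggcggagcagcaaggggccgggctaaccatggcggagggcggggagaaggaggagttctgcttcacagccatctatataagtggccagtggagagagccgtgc
Over the 250 bases before each of 16 RefSeq starts, ACGTG was found at 7 starts of 6 of the 10 genes (Aldoa, Hk2, Ldha, Pgk1, Pkm and Slc2a1), against 16.6% of all 32851 RefSeq promoters. CACGTG was found in Ldha alone among the 10, at 145 and 48 bases before the start, against 6.02% of all promoters. In Hk2 ACGTG lay 226 and 52 bases before the start, and in Slc2a1 36 bases before it. A match of letters is a description of the sequence and not a measured binding site.

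The files held raw counts of unique molecules (UMIs) per gene and cell. A library held 71894780 to 105224903 UMIs, 83704 of 83967 barcodes were kept, and the median per kept cell was 5250 to 6810.5 UMIs. Of the barcode sequences, 2029 occurred in more than 1 library. Cell classes were rebuilt by clustering, with the 10 genes left out of the clustering, and are named "-like" after fixed marker genes. Counts were then summed per library and class, and levels are given as CPM, the counts of a gene scaled to a fixed total of 1000000 UMIs in that sum, with replicate 1 before replicate 2. Levels were not compared between genes, since a 3′ count depends on each gene's transcripts. Reads of Gapdh, Tpi1, Pgk1 and Eno1 can also match pseudogene copies, and how such reads were counted is not stated in these sources. Eif3e itself was at 151 and 145 CPM in cKO and 265 and 296 CPM in control YFP+ GCB-like cells. In YFP+ naive B-like cells it was at 282 and 352 CPM in cKO and 211 and 261 CPM in control. In YFP+ activated B-like cells it was at 267 and 325 CPM in cKO and 287 and 321 CPM in control, with overlap. Which exons the floxed allele removes is not stated either, so a 3′ count may lie outside the deleted part. These counts cannot show which YFP+ cells had lost the allele.

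In the control spleen, GCB-like cells held the highest level of 4 of the 10 genes among 21 classes, with no overlap of its 2 libraries with the next class. How many of all genes had this order is not given here. Most cells of this class lay in clusters 10 and 11, which were low in S1pr2, a germinal center marker. S1pr2 was at 9.61 and 7.63 CPM in cluster 10 and at 2.45 and 0 CPM in cluster 11. Control YFP+ cells of these clusters were at 96.4 and 76.0 CPM and at 103 and 85.5 CPM. The order thus holds for the class as drawn. For Ldha the GCB-like level was 354.9 and 392.6 CPM, above the 346.1 CPM of the higher library of Th1 and effector CD4 T-like cells, and the naive B-like level was the lowest of all at 73.4 and 96.3 CPM. Gapdh was at 1083 and 1128 CPM in GCB-like cells, against 669 CPM on average in plasma cells, the next class. Tpi1 (125 CPM on average) was followed by plasma cells at 65.0 CPM, and Pgk1 (190 CPM) by Tfh-like cells at 114 CPM. Naive B-like cells were the lowest class for 3 of the 10 genes (Gapdh, Ldha and Pgk1), although for Gapdh their libraries overlapped those of transitional B-like cells, the neighbor above. In the cKO spleen the same counts were 4 and 3 of 10, over 20 classes.

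The remaining genes had other orders. Hk2 was highest in neutrophils, at 46.6 and 53.5 CPM, which overlapped classical dendritic cells, and then gamma delta T-like cells, monocytes and macrophages, and GCB-like cells at 24.9 and 18.9 CPM. Naive B-like cells stood at rank 18 for Hk2 with 4.69 and 3.56 CPM, and naive CD4 T-like cells were lowest at 1.01 and 0.551 CPM. Pkm and Eno1 were highest in neutrophils, Pkm with GCB-like cells second at 254 CPM against 307 CPM. Aldoa was highest in NKT-like cells, which overlapped neutrophils, and Pfkl in Tfh-like cells, which overlapped gamma delta T-like cells. Slc2a1 ran the other way in B cells. It was highest in memory B-like cells (59.9 CPM on average, from only 27 and 38 cells) and marginal zone B-like cells (44.5 CPM), stood at rank 4 in naive B-like cells, and at rank 17 in GCB-like cells with 19.9 and 19.8 CPM. The orders are descriptions, because the classes are clusters of the same cells.

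**Figure D1:**
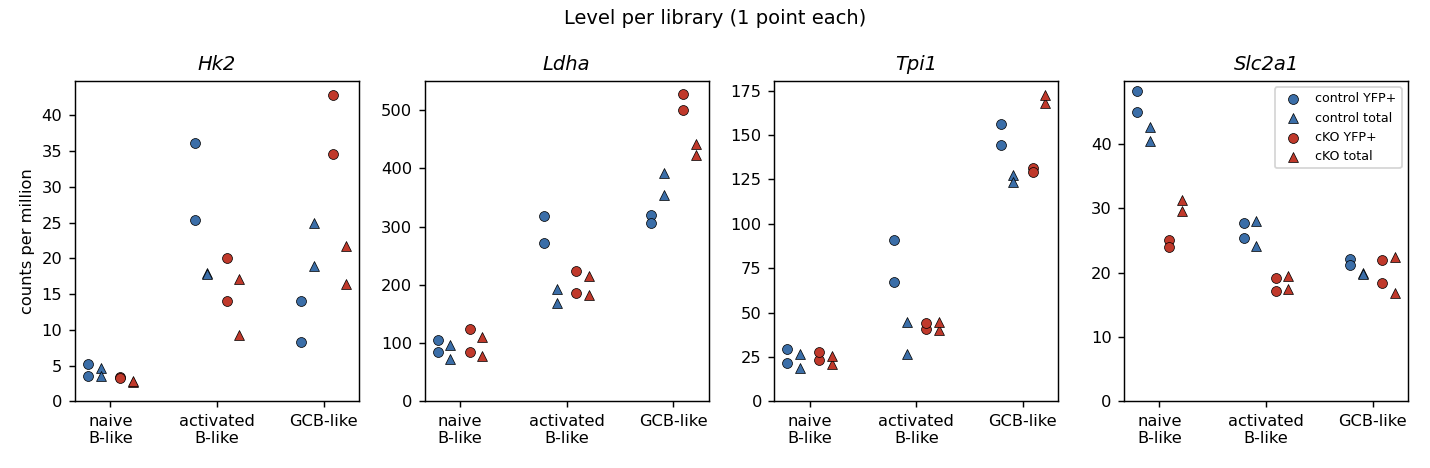
Levels of Hk2, Ldha, Tpi1 and Slc2a1 in CPM in naive B-like, activated B-like and GCB-like cells, with 1 point per library (circles, YFP+; triangles, total; colors, genotype). Hk2 in YFP+ GCB-like cells was at 42.8 and 34.6 CPM in cKO and at 14.0 and 8.28 CPM in control, and Slc2a1 was lower in cKO than in control naive B-like cells of both sorts.

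Within each library, the shift from naive to activated and GCB-like cells was computed for each gene as a log2 ratio of levels. The median over the 10 genes was 1.44 ± 0.15 (SD, n = 2 libraries) for GCB-like over naive B-like cells in the YFP+ control sort and 1.91 ± 0.12 in the YFP+ cKO sort. For activated over naive B-like cells it was 1.14 ± 0.016 in YFP+ control and 0.56 ± 0.14 in YFP+ cKO cells. This order of the genotypes turned with the class boundaries, with 1.69 in control and 1.83 in cKO without integration of the libraries and 1.34 and 1.39 with classes defined in the control libraries. In total splenocytes the activated ratio was 0.47 ± 0.13 in control and 0.56 ± 0.082 in cKO, and the GCB-like ratio was 1.85 ± 0.088 and 1.92 ± 0.12. Between 8 and 9 of the 10 genes were higher in GCB-like cells in both libraries of each group, and 8 of 10 in activated B-like cells, with Slc2a1 lower in every group. The share of all genes with such a shift is not given here, so these counts describe the 10 genes only. Summed, the 10 members of the pathway set took 0.0679% to 0.0932% of UMIs in naive, 0.0983% to 0.190% in activated and 0.241% to 0.318% in GCB-like cells over the 8 libraries. Classes were defined from these cells, so no test was made of the differences between classes.

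**Figure D2:**
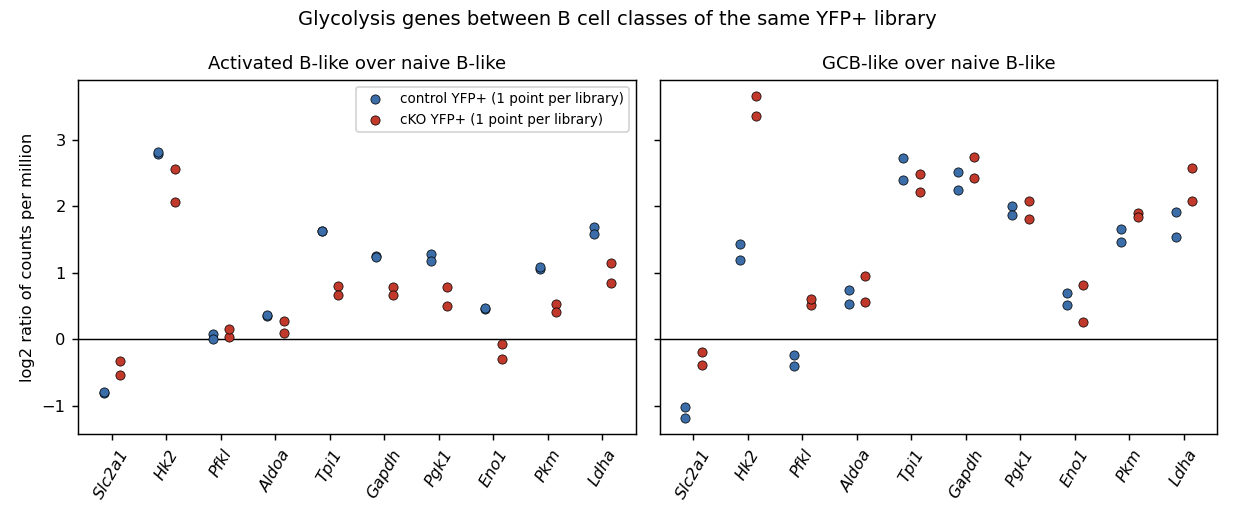
The log2 ratio of CPM of activated B-like (left) or GCB-like cells (right) over naive B-like cells for each of the 10 genes, with 1 point per YFP+ library. In the left panel both cKO points lie below both control points for Hk2, Aldoa, Tpi1, Gapdh, Pgk1, Eno1, Pkm and Ldha, and in the right panel the cKO points of Hk2 lie above all others. The order of the medians in the left panel turned without integration (1.69 in control, 1.83 in cKO).

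Among YFP+ GCB-like cells, 2 of the 10 genes, Hk2 and Ldha, were higher in cKO than in control. The level of Hk2 was 42.8 and 34.6 CPM in the cKO libraries and 14.0 and 8.28 CPM in the control libraries, so the groups did not overlap. The log2 fold change of Hk2 was 1.89 (SE 0.235, adjusted p = 0.0004765, edgeR quasi-likelihood test with Benjamini-Hochberg adjustment over all genes tested). Ldha was at 500.5 and 527.1 CPM in cKO and at 319.4 and 306.6 CPM in control, again with no overlap, a log2 fold change of 0.79 (SE 0.241, adjusted p = 0.0331). The share of all 13538 genes called in this comparison was 31.4% in either direction and 16.8% as higher in cKO, so that 2 of 10 called higher is close to what held for all genes. Among the other 8 genes the log2 fold changes ran from -0.14 (Tpi1) to 0.42 (Pkm), and none passed the test. Pkm, the pyruvate kinase, was at 318 and 283 CPM in cKO and 247 and 227 CPM in control (adjusted p = 0.202), and Pfkl at 24.4 and 22.5 CPM against 18.5 and 18.9 CPM (adjusted p = 0.154), so that these libraries did not overlap either. For Gapdh (1572 and 1510 CPM against 1276 and 1577 CPM), Pgk1 (186 and 195 against 158 and 195 CPM), Aldoa (255 and 226 against 219 and 253 CPM) and Eno1 (124 and 96.0 against 129 and 109 CPM) the libraries of the genotypes overlapped. Tpi1, at 131 and 129 CPM in cKO against 145 and 156 CPM in control, lay lower in cKO. How many of all genes lay without overlap is not given here. Over the 10 genes the median log2 fold change was 0.17, against -0.01 over all genes tested. The call of Ldha was lost without either cKO library (0.87, adjusted p = 0.252 without replicate 1 and 0.71, adjusted p = 0.428 without replicate 2), and it held in 12 of 20 settings, where Hk2 held in 18.

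The cKO and control cells of the GCB-like class were not alike in makeup. It consisted of 4 clusters, and of the 1880 cKO cells 37.98% fell in cluster 10, 38.4% in cluster 11, 11.8% in cluster 12 and 11.8% in cluster 16, against 33.6%, 23.3%, 32.0% and 11.04% of 5008 control cells. The summed level of the 8 GCB markers was 525 and 380 CPM in cKO and 1953 and 1573 CPM in control, and none of them was at 0. The naive B list stood at 652 and 749 CPM in cKO against 183 and 209 CPM in control, and the activated B list at 825 and 859 CPM against 447 and 336 CPM. The median cell of the class held 24393 and 25723 UMIs in cKO and 12900 and 12126 UMIs in control. S1pr2, a receptor that confines B cells to germinal centers, was at 10.2 and 5.81 CPM in cKO cells of cluster 10 against 96.4 and 76.0 CPM in control, but at 104.6 and 104.3 CPM against 140 and 112 CPM in cluster 12. Without integration of the libraries, 72.1% of these cKO cells fell with activated B-like and 20.9% with GCB-like cells, whereas 98.2% of the control cells stayed with GCB-like cells. The part of these differences in the levels of Hk2 and Ldha was not tested.

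Divided by cluster, the contrast in Hk2 among YFP+ cells lay mostly in the clusters low in S1pr2 in cKO. Low S1pr2 was not confined to cKO cells, however. In control total splenocytes cluster 11 had S1pr2 at 2.45 and 0 CPM and Hk2 at 34.3 and 29.0 CPM. Cluster 10 there had S1pr2 at 9.61 and 7.63 CPM and Hk2 at 23.6 and 14.3 CPM. Among YFP+ cells, Hk2 in cluster 11 was at 56.8 and 43.5 CPM in cKO and 21.1 and 11.04 CPM in control. In cluster 10 it was at 39.8 and 30.5 CPM against 14.8 and 6.77 CPM. In cluster 12, where S1pr2 was present in both genotypes, Hk2 was at 12.3 and 9.07 CPM in cKO and 9.46 and 7.69 CPM in control. This cluster had the highest GCB marker score, and when it alone stood for the class the log2 fold change of Hk2 was 0.37 (adjusted p = 0.778). In cluster 16 Hk2 was at 14.9 and 8.45 CPM against 7.56 and 8.15 CPM. Ldha was higher in both cKO libraries in each of the 4 clusters, in cluster 16 at 362 and 264 CPM against 243 and 214 CPM. It was at 300 and 308 CPM in cKO cells of cluster 12 and at 175 and 192 CPM in control, a log2 fold change of 0.75 that did not pass the test there (adjusted p = 0.242, with 3.57% of 10209 genes called). Tpi1 pointed in opposite directions, at 150 and 184 CPM in cKO against 78.3 and 98.6 CPM in control in cluster 12, but at 122 and 132 CPM against 191 and 194 CPM in cluster 11. In cluster 12 alone 9 of the 10 genes were higher in cKO and none was called. Without integration Hk2 and Ldha were also uncalled, where 1.26% of genes were called, with log2 fold changes of 0.47 (adjusted p = 0.797) and 0.46 (adjusted p = 0.643).

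**Figure D3:**
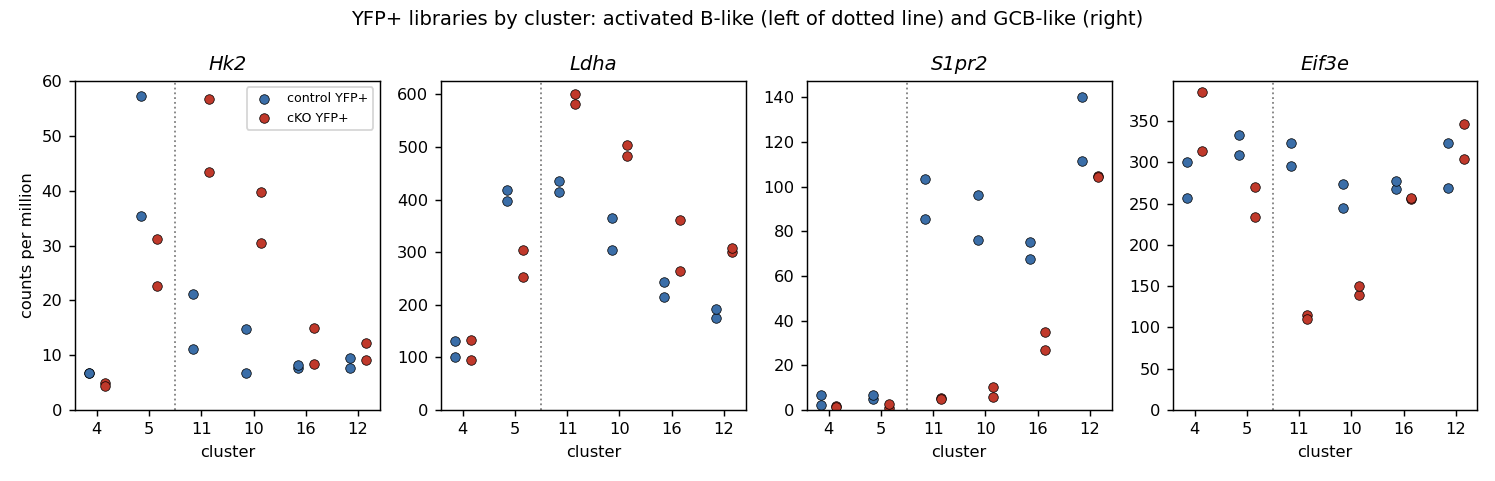
Levels of Hk2, Ldha, S1pr2 and Eif3e in CPM in the YFP+ libraries, by cluster of the activated B-like class (4 and 5) and the GCB-like class (11, 10, 16 and 12), with 1 point per library. Hk2 is highest in cKO cells of cluster 11 (56.8 and 43.5 CPM), while S1pr2 lies between 4.80 and 10.2 CPM in cKO cells of clusters 10 and 11, below the control cells.

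In GCB-like cells of total splenocytes, which were not selected for YFP, the values were different. Hk2 was at 21.8 and 16.5 CPM in cKO and 24.9 and 18.9 CPM in control, and the groups overlapped. Ldha was at 442 and 423 CPM against 355 and 393 CPM, Tpi1 at 168 and 173 CPM against 127 and 124 CPM, and Gapdh at 1522 and 1526 CPM against 1083 and 1128 CPM, with no overlap for these 3. Pkm did not overlap either, at 278 CPM on average in cKO and 254 CPM in control, and the remaining genes overlapped. The share of all genes without overlap is not given here. In this class the summed GCB markers were higher in cKO, at 1085 and 1137 CPM against 488 and 304 CPM, the reverse of the YFP+ sort. No test was planned for this class in total splenocytes, so these are levels only.

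In YFP+ activated B-like cells all 10 genes were lower in cKO than in control on the fitted scale, but none passed the test, where 1.37% of 11431 genes did. Tpi1 had the lowest value. It was at 40.9 and 44.0 CPM in cKO and 67.4 and 90.9 CPM in control, a log2 fold change of -0.81 (SE 0.283, adjusted p = 0.299, edgeR). Hk2 was at 19.99 and 14.0 CPM against 36.1 and 25.4 CPM (log2 fold change -0.76, adjusted p = 0.284), and Eno1 at 67.5 and 65.4 CPM against 109 and 105 CPM (-0.59, adjusted p = 0.429). The cKO and control libraries did not overlap for these 3 genes, which were also the 3 with an unadjusted p under 0.05, and DESeq2 called none of the 10 either. They likewise did not overlap for Ldha, at 186 and 224 CPM against 272 and 318 CPM, nor for Gapdh, at 405 and 443 CPM against 531 and 790 CPM. Pkm, at 122 and 105 CPM against 163 and 175 CPM, Pgk1, at 75.4 and 78.9 CPM against 95.9 and 120 CPM, Pfkl, at 17.5 and 16.3 CPM against 22.9 and 24.9 CPM, and Slc2a1, at 17.2 and 19.1 CPM against 25.4 and 27.7 CPM, were lower in both cKO libraries. Aldoa, at 159 and 164 CPM against 167 and 227 CPM, had the value nearest to 0 (-0.20). How many of all genes lay without overlap is not given here, so the lack of overlap describes these genes only. The median over the 10 genes was -0.47, against 0.00 over all genes tested.

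With the batch as a replicate block, 4 of the 10 genes passed the test as lower, Tpi1 (-0.79, adjusted p = 0.00497), Hk2 (-0.76, adjusted p = 0.0126), Eno1 (-0.59, adjusted p = 0.0162) and Gapdh (-0.52, adjusted p = 0.043), where 6.09% of all genes were called lower. Tpi1 was also called without control replicate 1 (-1.08, adjusted p = 0.0320), but the spread then comes from the cKO libraries alone and the lone control library is assumed to vary like them. The class had 1601 and 1861 cells in cKO and 444 and 563 in control, divided between clusters 4 and 5 as 53.4% and 46.6% in cKO and 51.5% and 48.5% in control. Without integration, however, 29.3% of these cKO cells and 1.39% of these control cells fell in the activated B-like class, 70.1% and 42.8% fell in B cell clusters without a name, and 14.7% of the control cells fell with naive B-like and 7.85% with GCB-like cells. Its summed naive B markers were at 2358 and 2532 CPM in cKO against 1539 and 1672 CPM in control, its activated B markers at 2013 and 2269 CPM against 1518 and 1364 CPM, its B1 markers at 98.4 and 65.6 CPM against 405 and 429 CPM, its marginal zone markers at 309 and 222 CPM against 502 and 457 CPM, and the 13 cell cycle genes took 0.0254% and 0.0232% of UMIs against 0.0371% and 0.0583%. Their part in the result was not tested. The direction depended on how the class was drawn: without integration of the libraries 7 of the 10 genes were higher in cKO and Hk2 was called higher (0.74, adjusted p = 0.0471, where 20.7% of genes were called), in a class that then held only 106 and 73 control cells.

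In activated B-like cells of total splenocytes Slc2a1 and Hk2 were lower in both cKO libraries. Eno1 was higher in both cKO libraries, the reverse of its direction in the YFP+ sort. The genotypes overlapped for the remaining genes, among them Tpi1 and Ldha. Tpi1 was at 40.1 and 45.0 CPM in cKO and 26.8 and 44.8 CPM in control, and Ldha at 183 and 215 CPM against 170 and 193 CPM. Hk2 was at 17.1 and 9.22 CPM against 18.0 and 17.8 CPM, and Slc2a1 at 17.4 and 19.4 CPM against 28.1 and 24.2 CPM. No test was planned for this class in total splenocytes, and the share of all genes without overlap is not given here.

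**Figure D4:**
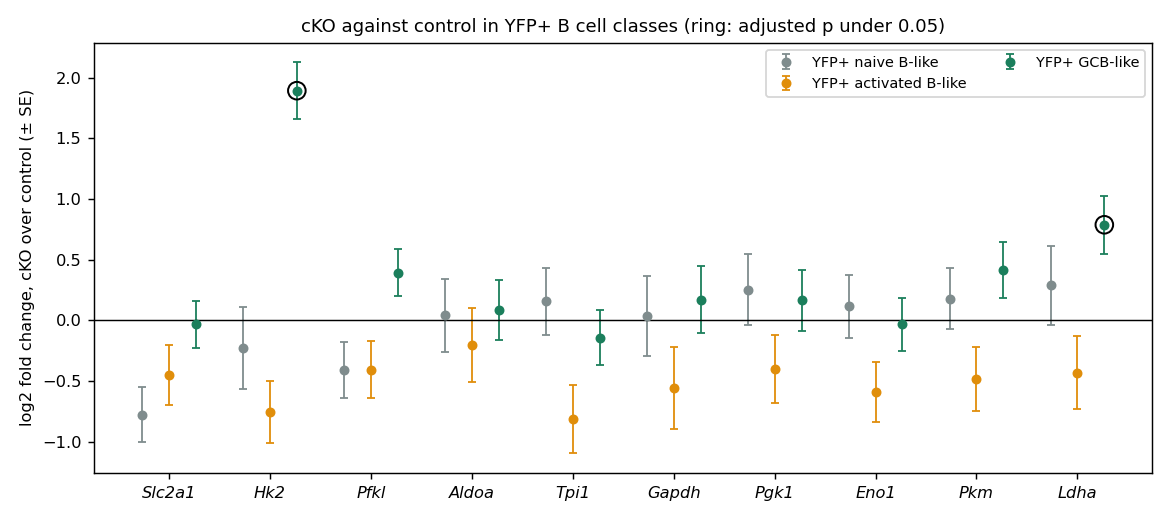
Log2 fold change of cKO over control, with its standard error as bars, for each of the 10 genes in YFP+ naive, activated and GCB-like cells. A ring marks an adjusted p under 0.05 in the fit without the replicate block. The activated B-like points all lie below 0 without a ring, and Hk2 (1.89) and Ldha (0.79) in GCB-like cells carry rings.

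Whether the genotype difference itself differed between classes was tested with a genotype by class term, with the library as a further term. In activated against naive B-like cells, 6 of the 10 genes had a lower genotype difference in activated cells, where 14.2% of 12391 genes were called in either direction and 8.55% as lower. They were Tpi1 (-0.95, SE 0.132, adjusted p = 1.55e-05), Eno1 (-0.69, adjusted p = 8.96e-05), Ldha (-0.68, adjusted p = 7.69e-05), Pkm (-0.65, adjusted p = 6.35e-05), Pgk1 (-0.63, adjusted p = 0.00066) and Gapdh (-0.56, adjusted p = 0.00014), all by the edgeR quasi-likelihood test. The terms of Slc2a1 (0.34), Pfkl (0.02), Hk2 (-0.54) and Aldoa (-0.21) were not called, although that of Hk2 was about as low as that of Gapdh. The median term over the 10 genes was -0.60, against 0.01 over all genes. All 6 calls remained when each library was left out in turn. They rested on the class boundaries, however: 1 of the 10 genes was called with classes defined in the control libraries (Eno1, -0.58), where 6.52% of all genes were. Without integration 1 was called, in the other direction (Hk2, 1.21, adjusted p = 0.0077), with 7 of 10 higher and 18.6% of all genes called. Of 13 settings, the call held in 11 for Eno1, Pgk1 and Pkm, in 10 for Tpi1 and Ldha and in 9 for Gapdh. The calls of Eno1, Tpi1, Ldha and Gapdh were thus lost in further class settings too.

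In GCB-like against naive B-like cells the term was higher for 4 of the 10 genes, where 32.1% of 14269 genes were called in either direction and 14.3% as higher. Hk2 had a term of 2.07 (SE 0.286, adjusted p = 1.35e-10), Pfkl of 0.77 (SE 0.212, adjusted p = 0.00196), Slc2a1 of 0.71 (SE 0.199, adjusted p = 0.00242) and Ldha of 0.49 (SE 0.201, adjusted p = 0.0475). For Slc2a1 the log2 fold change was -0.78 in naive and -0.03 in GCB-like cells, where it was at 22.0 and 18.3 CPM in cKO and 22.1 and 21.2 CPM in control. For Pfkl it was -0.41 in naive and 0.39 in GCB-like cells, and neither passed the test on its own. The call of Ldha was lost without cKO replicate 1 (0.27), control replicate 1 (0.65) or control replicate 2 (0.37), and by DESeq2 (0.56, adjusted p = 0.0535). Of the class settings tried, the call of Hk2 was lost without integration (0.89, adjusted p = 0.195) and with cluster 12 alone (0.59, adjusted p = 0.476). The calls of Pfkl and Slc2a1 were lost in both of these settings too (without integration 0.19 and 0.37), and also with cells thinned (0.42 and 0.24) and at resolution 1.5 (0.45 and 0.39). That of Ldha was lost without integration (0.42), with classes defined in the control libraries (0.48) and without cells of both lineages (0.26).

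In YFP+ naive B-like cells none of the 10 genes passed the test, where 0.605% of 12227 genes did. Slc2a1, the 1 gene with an unadjusted p under 0.05, was at 25.1 and 24.0 CPM in cKO and 44.9 and 48.2 CPM in control, without overlap (log2 fold change -0.78, SE 0.228, adjusted p = 0.238, edgeR). With the batch as a replicate block this gene was called (adjusted p = 0.00332, where 7.7% of genes were called lower). Markers of other B cell classes differed in both directions between the genotypes in these cells. The 6 marginal zone markers summed to 173 and 117 CPM in cKO and 493 and 380 CPM in control, the 5 B1 markers to 179 and 133 CPM against 574 and 744 CPM, and the 5 memory B markers to 138 and 117 CPM against 232 and 228 CPM, and the transitional B and plasma cell lists lay lower in cKO as well. The 8 activated B markers lay higher, at 1256 and 1454 CPM in cKO against 1086 and 1049 CPM in control, as did the 8 GCB markers, at 209.8 and 183 CPM against 139 and 150.2 CPM, and the T-bet+ B list, while the naive B and interferon-response B lists overlapped. Their part in the result was not tested. The other 9 genes had log2 fold changes from -0.41 (Pfkl) to 0.29 (Ldha). Pfkl was at 17.1 and 14.7 CPM in cKO and 21.7 and 24.9 CPM in control, again without overlap, while the libraries overlapped for Gapdh, at 235 and 280 CPM in cKO and 223 and 333 CPM in control, Pgk1, at 43.7 and 55.7 CPM against 39.5 and 53.2 CPM, Pkm, at 85.1 and 79.3 CPM against 78.2 and 82.3 CPM, and Ldha, at 84.0 and 124 CPM against 84.4 and 106 CPM. In naive B-like cells of total splenocytes Slc2a1 was at 29.5 and 31.3 CPM in cKO and 42.6 and 40.4 CPM in control, a log2 fold change of -0.34 that was called under the block alone (adjusted p = 0.00184, where 21.5% of genes were called against 0.0566% without it). In that class too the marginal zone markers (295 and 198 CPM in cKO against 550 and 533 CPM), the B1 markers (250.8 CPM in both against 577 and 697 CPM) and the memory B markers (117 and 118 CPM against 152 and 207 CPM, 1 of them at 0 in control replicate 2) lay lower in cKO, whereas the activated B markers (1222 and 1303 CPM against 1088 and 944 CPM) and the GCB markers (198 and 167 CPM against 111 and 114 CPM) lay higher, and their part was not tested. Ldha was called in that class under the block as well (0.24, adjusted p = 0.0198), from 77.4 and 110 CPM in cKO against 73.4 and 96.3 CPM in control, but without the block its value ran from -0.09 (without cKO replicate 2) to 0.52 (without cKO replicate 1), and the libraries overlapped. Marginal zone B-like cells gave Slc2a1 levels of 23.5 and 22.0 CPM in cKO and 48.6 and 49.6 CPM in control in the YFP+ sort, and of 33.2 and 30.8 CPM against 47.0 and 42.0 CPM in total splenocytes. In the YFP+ sort the cKO libraries also lay below the control libraries for Slc2a1 in transitional B-like cells (22.0 and 17.2 CPM against 30.2 and 43.9 CPM), T-bet+ B-like cells (23.0 and 25.6 CPM against 34.5 and 33.5 CPM), interferon-response B-like cells (26.8 and 17.5 CPM against 41.3 and 51.6 CPM) and memory B-like cells (25.9 and 26.5 CPM against 29.7 and 37.1 CPM). They did not in plasma cells, which stood at 14.1 and 12.6 CPM in cKO and 11.9 and 11.3 CPM in control, nor without overlap in GCB-like cells. No test was made in these classes, and the share of all genes that lay lower in both cKO libraries is not given here. The difference in the genotype term of Slc2a1 between the sorts, in naive B-like cells, was -0.44 and was not called (adjusted p = 1.0). It was called by edgeR (-0.43, adjusted p = 0.0353) only with genotype by batch as a block. That block pairs the sorts of a batch, but no label states that they came from the same mice. In that comparison 0.0% of 12877 genes were called by edgeR, 232 had an unadjusted p under 0.05, and DESeq2 called 6.

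Over all YFP+ B-lineage cells without plasma cells, none of the 10 genes was called, where 6.7% of 15778 genes were, and Hk2 alone had an unadjusted p under 0.05. With the replicate block Hk2 (0.65, adjusted p = 0.0167) was called higher and Slc2a1 (-0.49, adjusted p = 0.0414) lower, where 17.9% of genes were called. Without control replicate 1 Hk2 was called in the fit without the block too (0.83, adjusted p = 0.0218), with the lone control library assumed to vary like the cKO libraries, but its value was -0.06 with cells thinned to 3000 UMIs and 0.0061 without cells of both lineages. This sum mixes classes whose shares of cells differ between the genotypes.

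T cells do not transcribe the γ1 constant region and are not cells in which Cγ1Cre acts, so their genotypes were compared in total splenocytes. Across all CD4 T cells, none of the 10 genes was called, where 3.19% of 12235 genes were, and Tpi1 alone had an unadjusted p under 0.05. Tpi1 was at 33.2 and 57.6 CPM in cKO and 18.1 and 22.7 CPM in control, without overlap (log2 fold change 1.04, SE 0.313, adjusted p = 0.159, edgeR). Gapdh was at 475 and 708 CPM against 301.3 and 391.8 CPM (0.65), Aldoa at 171 and 249 CPM against 132 and 165 CPM (0.38), Pkm at 193 and 236 CPM against 155 and 159 CPM (0.33), and Slc2a1 pointed the other way at 18.0 and 21.3 CPM against 22.6 and 24.7 CPM (-0.38). With the batch as a replicate block 5 of the 10 genes were called, 4 of them higher, Tpi1 (1.01, adjusted p = 0.00057), Gapdh (0.64, adjusted p = 0.000972), Aldoa (0.36, adjusted p = 0.0178) and Pkm (adjusted p = 0.0303), and Slc2a1 lower (-0.39, adjusted p = 0.0498), where 24.4% of all genes were called. Tpi1 was also called without cKO replicate 1 (1.38, adjusted p = 0.0042) and without control replicate 2 (1.23, adjusted p = 0.00873), fits in which the lone library is assumed to vary like the pair of the other genotype. The subsets differed in number at the same time. Tfh-like cells numbered 431 and 717 in cKO and 100 and 138 in control, Treg-like cells 319 and 533 against 164 and 159, and naive CD4 T-like cells 615 and 578 against 978 and 917. B cell markers summed to 383 and 384 CPM in the cKO CD4 T cells and 187 and 270 CPM in control, and their part in the result was not tested.

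Within single subsets, Tpi1 had the highest log2 fold change of the 10 genes in Treg-like and in Tfh-like cells. In Treg-like cells Tpi1 was at 41.5 and 49.4 CPM in cKO and 17.0 and 26.9 CPM in control (1.02, adjusted p = 0.173, edgeR), and Aldoa at 154 and 230 CPM against 94.1 and 131 CPM (0.72, adjusted p = 0.38). These 2 had an unadjusted p under 0.05, but none of the 9 genes tested there was called, where 1.52% of 9199 genes were. Hk2 was too low to be tested. With the replicate block Aldoa (0.70, adjusted p = 0.00013), Gapdh (0.50, adjusted p = 0.000567), Tpi1 (1.00, adjusted p = 0.00421) and Pkm (adjusted p = 0.0305) were called higher, where 7.21% of genes were. Tpi1 was called without control replicate 2 as well (1.36, adjusted p = 0.0463), under the same assumption for the lone control library. In Tfh-like cells, the helpers of the germinal center, Tpi1 was at 52.8 and 88.6 CPM in cKO and 50.7 and 39.5 CPM in control (0.65, adjusted p = 0.482), and none of the 10 genes was called with or without the block or had an unadjusted p under 0.05, where 2.58% of 9921 genes were called without it. In naive CD4 T-like and naive CD8 T-like cells none was called, where 0.116% of 10388 and 0.0567% of 10581 genes were, and none of the 9 and 10 genes tested there had an unadjusted p under 0.05. Gapdh alone was called in each under the block, where 2.35% and 2.34% of genes were called higher. In naive CD4 T-like cells (0.43, adjusted p = 0.0126) it stood at 319 and 429 CPM in cKO against 245 and 330 CPM in control, and in naive CD8 T-like cells (0.34, adjusted p = 0.0388) at 322 and 372 CPM against 251 and 316 CPM. In naive CD4 T-like cells Tpi1 was at 15.98 and 21.9 CPM in cKO and 13.6 and 18.2 CPM in control, and the groups overlapped.

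**Figure D5:**
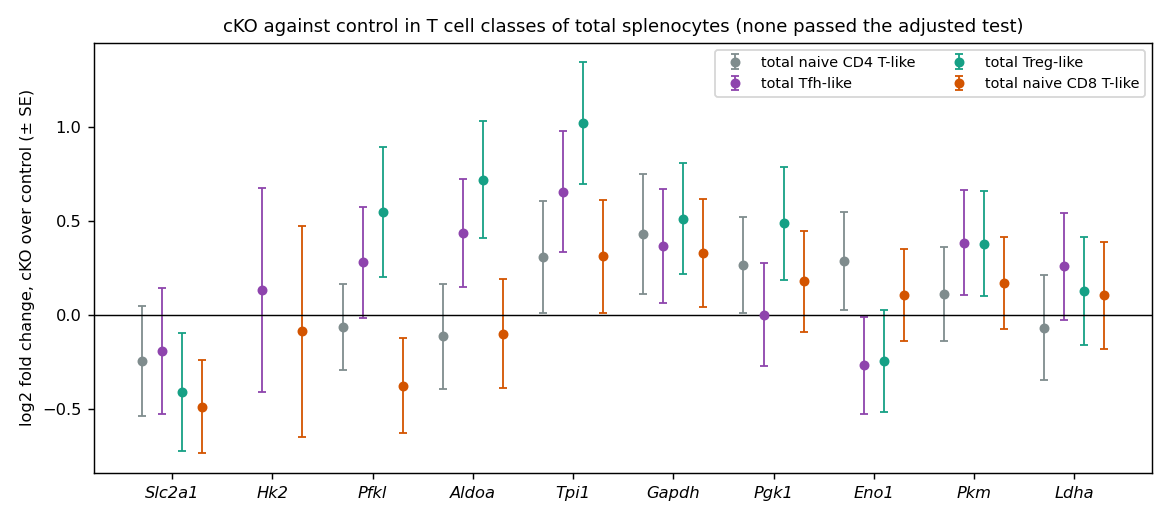
Log2 fold change of cKO over control, with its standard error as bars, for each of the 10 genes in 4 T cell classes of total splenocytes; Hk2 was not tested in naive CD4 T-like and Treg-like cells. Tpi1 lies highest, at 1.02 in Treg-like and 0.65 in Tfh-like cells, and no point passed the adjusted test in these fits without the replicate block. With the block, Aldoa, Gapdh, Tpi1 and Pkm were called in Treg-like cells, and Gapdh in naive CD4 T-like and naive CD8 T-like cells.

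Of the 23 other glycolytic enzymes, transporters and regulators in the list, 22 were tested in YFP+ GCB-like cells, and 6 were higher and 3 lower in cKO, where 16.8% of all genes were called higher and 14.6% lower. Slc2a6, a further glucose transporter family member, was at 19.0 and 18.8 CPM in cKO and 2.73 and 2.11 CPM in control (log2 fold change 3.05). It was also called in YFP+ activated B-like cells (24.4 and 36.1 CPM against 4.23 and 5.18 CPM, 2.78), where it was the only called gene of 18 tested, beside 1.37% of all genes, and in YFP+ naive B-like cells (19.0 and 31.7 CPM against 4.48 and 4.86 CPM, 2.61). Slc2a6 was called in all CD4 T cells of total splenocytes as well (3.29), on 35 and 97 UMIs in cKO and 2 and 6 UMIs in control. Bpgm, which makes 2,3-bisphosphoglycerate, fell in YFP+ GCB-like cells, from 29.5 and 32.5 CPM in control to 8.49 and 5.73 CPM in cKO (-2.07). In GCB-like cells of total splenocytes Bpgm lay the other way, at 10.6 and 11.8 CPM in control and 17.5 CPM in both cKO libraries, without a test. Eno3, the muscle enolase, was lower in Tfh-like cells (-2.57), on counts of 7 and 12 UMIs in cKO and 10 and 12 UMIs in control. Pgam1, which follows Pgk1 in the pathway, was at 93.9 and 98.95 CPM in cKO and 125 and 173 CPM in control in YFP+ activated B-like cells, where it was not called. In activated B-like cells of total splenocytes the genotypes overlapped for Pgam1, at 80.6 and 88.4 CPM in cKO and 81.9 and 88.5 CPM in control. Of 7 pentose phosphate genes, 1 was called lower in YFP+ GCB-like cells, beside 14.6% of all genes, and none in YFP+ activated B-like cells, beside 1.37%.

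Of the Hif1a list outside glycolysis, 5 of 10 tested genes were higher and 1 lower in cKO YFP+ GCB-like cells, beside 16.8% and 14.6% of all genes. P4ha1, a collagen prolyl hydroxylase subunit, was at 18.4 and 20.3 CPM in cKO and 6.58 and 6.44 CPM in control (1.64), and Vegfa had 33 and 65 UMIs in cKO and 1 and 2 UMIs in control. In GCB-like cells of total splenocytes Vegfa had 1 and 8 UMIs in cKO and 5 and 4 UMIs in control. Ndrg1, a stress-responsive gene, was higher in YFP+ activated B-like cells at 22.1 and 19.9 CPM against 9.31 and 6.99 CPM (1.47) and in YFP+ naive B-like cells at 15.4 and 14.9 CPM against 4.71 and 4.99 CPM (1.79). In total splenocytes the genotypes overlapped for Ndrg1, at 8.45 and 11.9 CPM in cKO against 11.3 and 14.3 CPM in control in activated and at 4.19 and 6.06 CPM against 4.91 and 6.15 CPM in naive B-like cells. In all CD4 T cells Egln3, an oxygen-sensing prolyl hydroxylase, was at 23.3 and 28.8 CPM in cKO and 8.41 and 4.44 CPM in control (1.90). Within Tfh-like cells it was at 45.5 and 40.8 CPM in cKO and 30.2 and 15.4 CPM in control. In naive CD4 T-like cells it was at 0.749 and 0.477 CPM against 3.16 and 0.918 CPM. The subsets differed in number between the genotypes, and the part of this in the pooled value was not tested.

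Of the Myc list outside glycolysis, 9 of 10 genes were higher in cKO YFP+ GCB-like cells, with a median log2 fold change of 1.31, beside 16.8% of all genes called higher. The makeup of this class differed between the genotypes, as described above, and Myc itself is among the activated B markers. The part of the makeup in the values of the other gene lists was not tested. Srm, the spermidine synthase, was at 203 and 223 CPM in cKO and 44.5 and 29.3 CPM in control (2.62). In GCB-like cells of total splenocytes, where no test was planned, Srm overlapped between the genotypes at 119 and 90.7 CPM in cKO and 78.1 and 96.6 CPM in control, Fbl lay lower in cKO at 252 and 244 CPM against 263 and 326 CPM, and so did Myc at 56.8 and 88.2 CPM against 109.6 and 164 CPM. In YFP+ activated B-like cells all 10 lay lower in cKO and none was called (median -0.37). The genotype by class term of this list was called lower for 8 of 10 genes in activated against naive B-like cells, among them Npm1 (-0.77), Fbl (-0.80), Ncl (-0.74) and Mybbp1a (-0.80), ribosome biogenesis genes, and was called higher for 8 of 10 in GCB-like against naive B-like cells. Over all genes these terms were called lower for 8.55% and higher for 14.3%. Their values for this list under other class definitions are not given here. In activated B-like cells of total splenocytes, without a planned test, the genotypes overlapped for Npm1, Fbl, Ncl and Mybbp1a. Ncl was at 1262 and 1453 CPM in cKO and 1133 and 1600 CPM in control there. Myc lay lower in cKO, at 133 and 171 CPM against 214 and 280 CPM. Mif of the Hif1a list, a cytokine, had a term of -0.95 in activated cells. Myc itself was lower in cKO Treg-like cells (-1.89). Of 13 cell cycle genes, 8 had a called lower term in activated against naive B-like cells (8.55% of all genes). Ube2c, a mitotic ubiquitin-conjugating enzyme, was lower in YFP+ activated B-like cells (-2.04, adjusted p = 0.0495, edgeR), on 31 to 43 UMIs per library. In activated B-like cells of total splenocytes Ube2c lay the other way, at 1.46 and 1.11 CPM in cKO and 0.738 and 0.704 CPM in control, on 3 to 9 UMIs per library and without a test. In YFP+ GCB-like cells 2 of the 13 were lower and none higher, close to the 14.6% of all genes called lower, and the list took 0.288% and 0.237% of UMIs in cKO and 0.435% and 0.385% in control.

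The 10 genes did not all vary together across cells. Over 138 sums of class and library in 21 classes, the log2 level of each gene was correlated with the mean of the other 9. Pearson's r was 0.775 for Pgk1, 0.746 for Gapdh, 0.726 for Pkm, 0.675 for Tpi1, 0.569 for Ldha, 0.565 for Aldoa and 0.429 for Eno1, but 0.219 for Hk2, 0.126 for Pfkl and -0.076 for Slc2a1. The closest pair was Gapdh and Pgk1 (0.844). Among 8464 other genes the mean of the 10 was most like Pgam1 (0.832), the phosphoglycerate mutase, followed by Psma7, Isyna1, Tfdp1, Hmgb2, Uqcr10, Elob, Ndufb7, Cox6c and Snrpb (0.784 to 0.712). These sums share libraries, so the values describe likeness only and carry no test.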

How the data were processed

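Single-cell 3′ RNA sequencing (SeekOne DD kit) was made on sorted splenocytes in 8 libraries, 2 per group. The authors deposited raw UMI counts per gene and cell for each library. Neither aligner nor counter is named in the sources. Of genome builds, the submitters' processing notes list GRCm38 and mm10. Replicates were merged by the study but were kept apart here. Nothing in the labels names single mice, so p-values measure the spread between libraries of pooled mice. The 10 genes, the other gene lists and the tests were chosen with earlier results of these data known.

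Cells with over 200 UMIs, over 100 genes and at most 10% mitochondrial UMIs were kept (263 barcodes removed; the fewest UMIs kept was 500). Counts were scaled to 10000 per cell and logged, 2000 variable genes were taken without the 10 genes, the other lists except the cell cycle list, immunoglobulin and T cell receptor segments and ribosomal and mitochondrial genes, and cells were integrated over libraries (Harmony algorithm, 30 components) and clustered (Leiden algorithm, 20 neighbors, resolution 1). A cluster was named from its highest-scoring marker list, provided that 3 or more of those markers were found in 10% of the cells and that no second list led it among the 10 leading genes. These settings were fixed after the clusters were seen and before any test between groups. Myc was 1 of 8 activated B markers. No doublet caller was run. Cells with at least 2 UMIs each of B and of T markers (8452 cells, 3.53% to 15.5% of a library) were removed as an alternative only, and doublets of 1 lineage were not removed.

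Counts were summed per library and class (at least 20 cells in each library) and tested with edgeR 4.0.16 in R 4.3.3 (TMM, filterByExpr, quasi-likelihood F test, Benjamini-Hochberg adjustment over all genes tested, threshold 0.05), with DESeq2 1.42.0 as an alternative. Log2 fold changes come from these fits, whereas CPM uses the class total. Class ratios used CPM with a pseudocount of 0.5 counts. Python 3.11.15 with numpy 2.4.6, scipy 1.17.1, pandas 2.3.3, scikit-learn 1.9.0 and igraph 0.11.9 served the rest, and the tests were tested on simulated data. The labels give the replicate number as a shared batch, and over genes the batch-1 deviations of both genotypes correlated at 0.522 to 0.874 in the 10 comparisons, so the numbers pair the libraries. The main fits within a class carry no batch term, so differences between batches count there as spread between libraries. The fits with the replicate block are those that use this pairing. The genotype by class terms carry the library, so their calls and those of the main fits rest on unlike spreads. Other alternatives were other scalings and filters, other clusterings and class definitions, thinning to 3000 UMIs per cell and leaving out each library. All 10 genes are reported; of the other lists, at most 5 called genes per comparison were named in order of adjusted p, and Ldhb (no UMI in control YFP+ GCB-like cells) is given no fold. Genes named for likeness were the 10 with the highest Pearson correlation among genes with a mean of at least 10 CPM. Promoter sequences are from RefSeq (GRCm38.p6).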

Additional observations from a re-analysis of the deposited data

Results flagged for a closer look

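These results stand out because the genotype difference itself differed between 2 B cell classes of the same YFP+ libraries, by the genotype by class term (edgeR, adjusted over all genes). In GCB-like against naive B-like cells the term was positive for Hk2 (2.071), Pfkl (0.7689), Slc2a1 (0.7076) and Ldha (0.4918). In activated against naive B-like cells it was negative for Tpi1 (-0.9452), Eno1 (-0.687), Ldha (-0.6834), Pkm (-0.6458), Pgk1 (-0.6288) and Gapdh (-0.5614). The GCB-like term of Ldha was lost when any 1 of 3 of the 4 libraries was left out, and by DESeq2 (adjusted p = 0.0535), and it and the terms of Pfkl, Slc2a1 and Hk2 were not called without integration. Of the 6 activated terms, that of Eno1 alone was called with classes defined in the control libraries, where those of Gapdh (0.3195) and Pkm (0.0594) turned positive, and none was called without integration, where those of Gapdh (0.2914), Ldha (0.4633) and Pkm (0.1894) turned positive. The makeup of the GCB-like and activated B-like classes differed between the genotypes, and its part in these terms was not tested. Groups of 2 libraries were too small for a test of single outlying libraries.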

How the results depend on the processing

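With 2 libraries a group and classes rebuilt from the cells, several calls depended on how the classes were drawn. Of the 10 genes, the number called in YFP+ GCB-like cells (2) was 1 with classes defined in control libraries, at resolution 1.5, without cells of both lineages or without a filter on low counts, 0 with cluster 12 alone and 0 without integration, and 1 to 3 when a library was left out. For the GCB-like term against naive cells (4) it was 3 by DESeq2, 2 with cells thinned or at resolution 1.5, and 1 without integration, a gene not among these 4. For the activated term (6) it was 1 with control-defined classes and 1 without integration, and calls of Eno1, Tpi1, Ldha and Gapdh were lost in further class settings. In activated B-like cells (0) it was 1 without integration, 4 with the replicate block and 0 to 1 with a library left out. The replicate block also raised the count from 0 to 2 over all YFP+ B-lineage cells, to 1 in YFP+ naive, 2 in total naive B-like, 5 in all CD4 T (1 without a filter on low counts), 4 in Treg-like, 1 in naive CD4 T-like and 1 in naive CD8 T-like cells. For YFP+ against total naive B-like cells the count was 1 with genotype by batch as the block. The block changed no other call of the counts. DESeq2 called none of the 10 wherever edgeR called none. The median log2 ratio over naive B-like cells moved as follows. For GCB-like cells in cKO (1.91) it was 1.557 with cluster 12 alone, 1.778 without cells of both lineages, 2.041 without integration and 2.038 at resolution 0.5. In control (1.44) it was 0.9254 with cluster 12 alone, 1.274 without the cluster led by Fabp5, 1.623 and 1.2 at resolutions 0.5 and 1.5 and 1.244 with cells thinned. For activated B-like cells in cKO (0.56) it was 0.8899 with the highest-scoring cluster alone, 1.394 with control-defined classes, 1.828 without integration, 1.02 and 1.048 at resolutions 0.5 and 1.5 and 0.4108 with cells thinned. In control (1.14) it was 1.491, 1.335, 1.689, 1.52, 1.524 and 0.8752 in that order, and 1.109 without cells of both lineages. Single-gene values were followed under every setting only for genes called in that comparison with or without the replicate block. Among these the sign reversed in activated B-like cells for Gapdh with control-defined classes (0.3215) and without integration (0.1281) and for Hk2 without integration (0.7412; of all 10 genes, 4 and 7 were then higher), over all B-lineage cells for Hk2 with cells thinned (-0.05607), and in total naive B-like cells for Ldha without cKO total replicate 2 (from -0.08502 to 0.5217 with a library left out). The called activated terms reversed for Gapdh (0.3195) and Pkm (0.0594) with control-defined classes, and for Gapdh (0.2914), Ldha (0.4633) and Pkm (0.1894) without integration. The terms of Hk2 (1.21) and Aldoa (0.34), uncalled in the main fit, turned too without integration, and that of Hk2 was called there. The cause was not tested. Of these single-gene values, 437 kept direction and side of the threshold, 38 lost the call, 27 gained it and 10 reversed. Over all genes, calls ran from 153 to 6405 in GCB-like, 14 to 2600 in activated, 11 to 1829 in naive and 239 to 2827 in all B-lineage YFP+ cells, 564 to 4575 and 567 to 2293 for the GCB-like and activated terms, 0 to 512 for the sorts, and in total splenocytes 6 to 2654 in naive B-like, 326 to 2991 in all CD4 T, 82 to 1380 in Treg-like, 102 to 718 in Tfh-like, 1 to 554 in naive CD4 T-like and 1 to 513 in naive CD8 T-like cells. Settings without integration, with a single cluster, without the cluster led by Fabp5, and all class settings of the 2 terms were chosen after seeing the data. The memory CD8 T-like comparison was not run, because no cluster could be so named.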

Other observations

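Hk2 in T-bet+ B-like cells of the YFP+ sort was chosen after its values were seen. It was at 2.18 and 3.50 CPM in cKO (7 and 10 UMIs) and at 14.1 and 11.49 CPM in control (112 and 81 UMIs), so that the libraries did not overlap and cKO was lower, whereas in GCB-like cells of the same libraries cKO was higher. In total splenocytes the T-bet+ B-like values of Hk2 were 3.21 and 1.26 CPM in cKO and 8.002 and 5.60 CPM in control, on 2 to 14 UMIs per library. No test was made in this class.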
